A study of Mus musculus with 28 samples.

Results

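The zinc finger protein genes whose mouse symbol is Zfp followed by a number were examined in primary mouse embryonic fibroblasts (MEFs). Members were chosen by name and by measured level. A gene was taken through its probe set with the highest mean over all 28 arrays, a probe set being the group of probes that reads a transcript, and was kept if that mean was 6 or more on the log2 scale. This left 90 of 277 Zfp genes that had a probe set of their own, beside 7390 of 17097 genes that passed the same rule. MEFs came from embryos of 13.5 days and were used at passage 2. The treated groups were WT MEFs after H2O2 (n = 4 arrays), WT MEFs after Doxo, that is doxorubicin (n = 2), p66-/- MEFs after H2O2 (n = 4), p66-/- MEFs after Doxo (n = 2) and p53-/- MEFs after H2O2 (n = 4). The groups they were set against were untreated MEFs of each genotype (n = 4 arrays each). The labels give 400 μM H2O2 or 0.25 μg/ml Doxo for 4 h, name the knockouts p66ShcKO and p53KO and the strain C57Bl/6, whereas the methods of the study name sv129. All values are log2 intensities of bulk RNA, in which fewer cells of a type and less RNA per cell cannot be told apart, and a difference of 1 is a 2-fold change.

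C2H2 zinc finger proteins bind DNA or RNA through repeated small folds that each hold a zinc ion. Many mouse members also carry a KRAB domain, which recruits the corepressor Trim28 and, with it, the histone methyltransferase Setdb1 to silence retroelements and imprinted loci. Others have no KRAB domain and act in pluripotency, splicing, mitosis or ribosome maturation, so that the symbol Zfp marks a fold and not a common function. Doxorubicin intercalates in DNA and poisons topoisomerase II, and H2O2 causes oxidative stress.

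The promoters of the 2 members with the largest falls and the 2 with the largest rises after Doxo in WT, among those with an entry in RefSeq's promoter table (GRCm38.p6), are shown to let the sequences of members that moved in opposite directions be set side by side. Each runs 5′ to 3′ from 250 bases before to 50 bases after the first listed start. Capitals mark the motifs searched, on either strand. The GC box was searched as GGGCGG, and the CCAAT box by the letters of its name. The motif of ETS factors was searched as CCGGAAG. The motif of YY1 was searched as AAGATGG. Zfp445 lies at chr9:122865957-122866256 (minus strand) and Zfp644 at chr5:106696781-106697080 (minus strand), and both fell. Zfp688 lies at chr7:127421985-127422284 (minus strand) and Zfp428 at chr7:24506837-24507136 (plus strand), and both rose.
Zfp445: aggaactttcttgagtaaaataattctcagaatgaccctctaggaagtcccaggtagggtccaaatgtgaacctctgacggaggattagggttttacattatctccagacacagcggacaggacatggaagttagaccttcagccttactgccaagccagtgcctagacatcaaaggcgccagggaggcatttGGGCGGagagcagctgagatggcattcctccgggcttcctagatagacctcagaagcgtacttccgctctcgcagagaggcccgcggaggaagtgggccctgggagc
Zfp644: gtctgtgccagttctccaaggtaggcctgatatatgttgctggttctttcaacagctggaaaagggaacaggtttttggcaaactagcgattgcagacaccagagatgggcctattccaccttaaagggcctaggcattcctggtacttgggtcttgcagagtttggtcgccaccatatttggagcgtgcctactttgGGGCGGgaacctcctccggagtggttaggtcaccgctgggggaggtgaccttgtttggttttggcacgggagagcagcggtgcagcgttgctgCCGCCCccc
Zfp688: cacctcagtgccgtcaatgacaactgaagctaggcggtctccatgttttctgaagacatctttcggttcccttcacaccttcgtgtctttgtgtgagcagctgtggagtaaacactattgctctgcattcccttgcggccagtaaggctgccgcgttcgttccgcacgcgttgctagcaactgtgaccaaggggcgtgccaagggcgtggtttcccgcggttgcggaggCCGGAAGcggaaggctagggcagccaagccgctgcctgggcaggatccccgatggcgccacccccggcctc
Zfp428: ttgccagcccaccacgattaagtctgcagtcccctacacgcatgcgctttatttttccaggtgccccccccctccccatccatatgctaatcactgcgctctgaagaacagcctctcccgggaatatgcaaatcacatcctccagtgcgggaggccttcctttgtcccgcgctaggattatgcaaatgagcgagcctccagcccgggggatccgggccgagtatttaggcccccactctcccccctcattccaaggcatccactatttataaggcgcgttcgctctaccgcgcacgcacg
The promoters of Zfp445 and Zfp644 held 10 CpG each, against 22 in Zfp688 and 19 in Zfp428. A promoter was found for 66 of the 90 members, and the median number of CpG was 19 in the 30 members that fell after Doxo in WT, 21.5 in the 14 that rose and 17.5 in the 22 not called. The GC box was present in 22 of 30 promoters of members that fell, 9 of 14 that rose and 10 of 22 not called, against 69.2% of genes with a mean of 6 or more and 35.9% of all 27025 promoters. The CCAAT box was present in 16 of 30, 6 of 14 and 7 of 22, against 38.6% and 37.9%. The ETS motif was present in 7 of 30, 1 of 14 and 4 of 22, against 21% and 9.12%. The YY1 motif was present in 7 of 30 members that fell, 1 of 14 that rose and 0 of 22 not called, against 8.52% and 6.48%. No motif contains another, and a match is a description of the sequence only.

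Facts of the whole series bear on how these values can be read. Control probe sets split the arrays into 3 sets, namely replicates 1 and 2 of the untreated and H2O2 groups (spike-in lys 4.99 to 6.06), replicates 3 and 4 of them (3.24 to 4.04) and the 4 Doxo arrays (4.04 to 4.41, with bioB at 7.91 to 8.17 against 6.62 to 7.68 on the other 24 arrays). Doxo and its array set therefore cannot be told apart. The 3′ minus 5′ signal of Gapdh was -0.10 to -0.05 on the Doxo arrays, against -0.26 to 0.21 on the others. The H2O2 response of the arrays labelled p53-/- ran opposite to that of WT, with a Pearson correlation of -0.82 across all 45037 probe sets between comparisons that share no array. Atf3, a stress-induced transcription factor, averaged 5.98 ± 0.31 on the arrays labelled p53-/- H2O2 and 8.88 ± 0.36 on those labelled p53-/- untreated (SD, n = 4 each), against 8.64 ± 0.39 after H2O2 and 5.79 ± 0.15 untreated in WT. The treatment labels of the p53-/- arrays thus go against this gene, and the results below are given as labelled and with the labels exchanged. The mean over 10 fibroblast markers was 8.94 to 10.3 on the single arrays. It was 8.94 to 9.26 on WT Doxo arrays, against 9.42 to 10.28 on untreated WT arrays. In p66-/- it was 9.14 to 9.24 on Doxo arrays, against 9.69 to 10.20 on untreated arrays. Of these markers, 8 averaged 6 or more over the 28 arrays, while Col1a2 (5.10) and Pdgfra (5.64) lay below. Of the 10, Vim, Postn and Col1a2 fell after Doxo in WT and Fn1, Col3a1, Postn and Col1a2 in p66-/-. The mean over 5 macrophage markers was 6.22 to 6.65 on WT Doxo arrays, against 4.83 to 6.37 on untreated WT arrays, and 6.47 to 6.74 on p66-/- Doxo arrays, against 5.97 to 6.49 on untreated p66-/- arrays. Csf1r rose after Doxo in both genotypes and Ptprc fell in p66-/-. Of the endothelial, epithelial, neural, muscle and erythroid lists, no marker was called after Doxo in WT, while Epcam, Des and Alas2 rose in p66-/-. The mean over 4 epithelial markers was 5.58 to 5.84 on WT Doxo arrays, against 4.87 to 5.35 on untreated WT arrays, and 6.04 to 6.09 in p66-/- Doxo, against 5.09 to 5.75. That over 4 endothelial markers was 3.92 to 3.96 in WT Doxo, against 3.66 to 3.77, and 3.88 to 3.95 in p66-/- Doxo, against 3.67 to 3.81. The muscle list had 5.46 to 5.66 in WT Doxo, against 4.84 to 5.53, and 5.43 to 5.86 in p66-/- Doxo, against 4.81 to 5.12. The erythroid list had 4.98 to 4.99 in WT Doxo, against 4.77 to 4.94, and 4.95 to 5.16 in p66-/- Doxo, against 4.68 to 5.00. The neural list had 4.64 to 4.76 in WT Doxo, against 4.40 to 4.85, and 4.66 to 4.84 in p66-/- Doxo, against 4.12 to 4.68. The epithelial and endothelial lists in both genotypes were thus higher on every Doxo array than on every untreated array of the genotype. So were the erythroid list in WT and the muscle list in p66-/-. The fibroblast list was lower on every Doxo array than on every untreated array in both genotypes, and the other ranges met. The part of other cell types in the results below was not tested.

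The level of the Zfp genes as a group was lower after Doxo than in any other condition. The median over the 90 members was 6.73 and 6.62 on the WT Doxo arrays and 6.61 and 6.57 on the p66-/- Doxo arrays, against 6.92 to 7.06 on the 4 untreated WT arrays and 6.93 to 7.19 on the 4 untreated p66-/- arrays. The Doxo arrays did not overlap with any of the other 24, whose medians were 6.78 to 7.30. Over the 7390 genes of the same level, the Doxo arrays had 7.71 to 7.77, against 7.75 to 7.96 on the others, so that these ranges met. After H2O2 the medians were 6.78, 7.10, 6.83 and 7.09 in WT, which overlapped with the untreated arrays, 6.99 to 7.30 in p66-/-, and 6.99 to 7.16 on the arrays labelled p53-/- H2O2, against 6.93 to 7.17 on those labelled p53-/- untreated. Ordered by the mean of their array medians, the groups ran from p66-/- Doxo (6.59 ± 0.03, SD, n = 2) over WT Doxo (6.67 ± 0.07, n = 2), WT H2O2 (6.95 ± 0.17), untreated WT (6.99 ± 0.06), p53-/- untreated as labelled (7.01 ± 0.11), untreated p66-/- (7.03 ± 0.11) and p53-/- H2O2 as labelled (7.08 ± 0.08) to p66-/- H2O2 (7.11 ± 0.13, n = 4 each). Neighbours from WT H2O2 upward did not differ beyond their spread. The gap below WT H2O2 was wider than the SD of either neighbour.

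**Figure D1:**
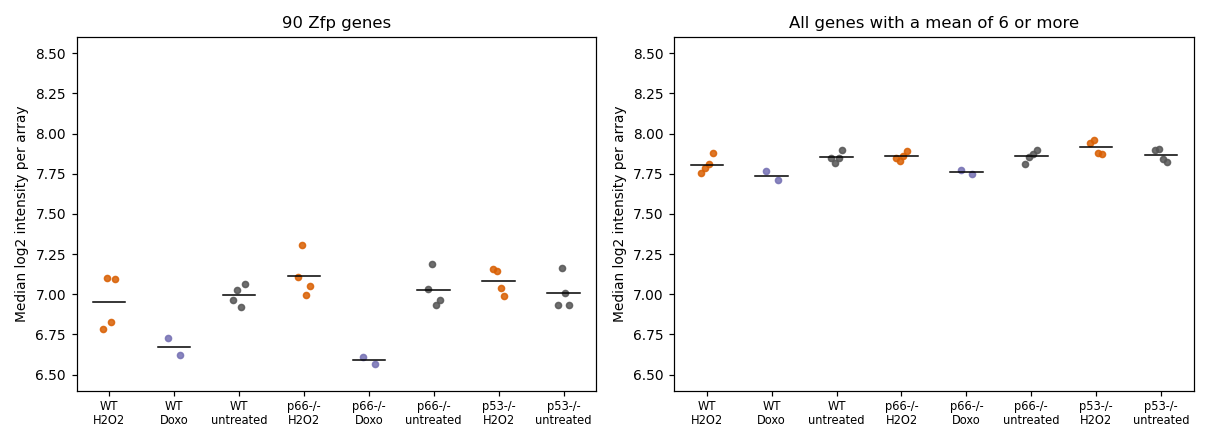
Median log2 intensity per array of the 90 Zfp genes (left) and of all 7390 genes with a mean of 6 or more (right). Points are arrays, black lines are group means, and the 4 Doxo arrays sit at 6.57 to 6.73 for the Zfp genes, below all other arrays.

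Members were then tested with limma across all 45037 probe sets, and a call is an adjusted p under 0.05. After Doxo in WT, 40 of the 90 members fell and 18 rose. Over all probe sets 13.0% fell and 21.9% rose, and over the 7390 genes taken by the same rule 31.3% fell and 25.5% rose, against 44.4% and 20% of the members. In p66-/- MEFs 40 fell and 21 rose, that is 44.4% and 23.3%, where 14.1% of all probe sets and 32.2% of the genes fell, and 26.6% and 29.5% rose. The median change of the members was -0.38 in WT and -0.40 in p66-/-, against 0.06 and 0.08 for the 7390 genes and 0.13 and 0.15 for all probe sets. It was -0.11 in WT and -0.12 in p66-/- after a further quantile normalization, and 0.014 and -0.055 with each gene's lowest probe set. In each genotype 28 members fell by 2-fold or more, 14 of them by 4-fold or more, while 6 rose by 2-fold or more in WT and 7 in p66-/-. Of the 7390 genes, 1582 fell by 2-fold or more in WT, 653 of them by 4-fold or more, and 480 rose by 2-fold or more. In p66-/- these counts were 1643, 696 and 643. Scaling moves the balance of rises and falls. After the quantile normalization 34 members fell and 26 rose in WT (27.7% and 31.9% of the genes), so that the share of calls that were falls was 56.7%, compared with 69% as deposited, and in p66-/- 32 fell and 26 rose (55.2% against 65.6%). Without WT Doxo replicate 2, 37 calls were made in WT, 30 of them falls, the lone Doxo array then being assumed to vary like the other groups.

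**Figure D2:**
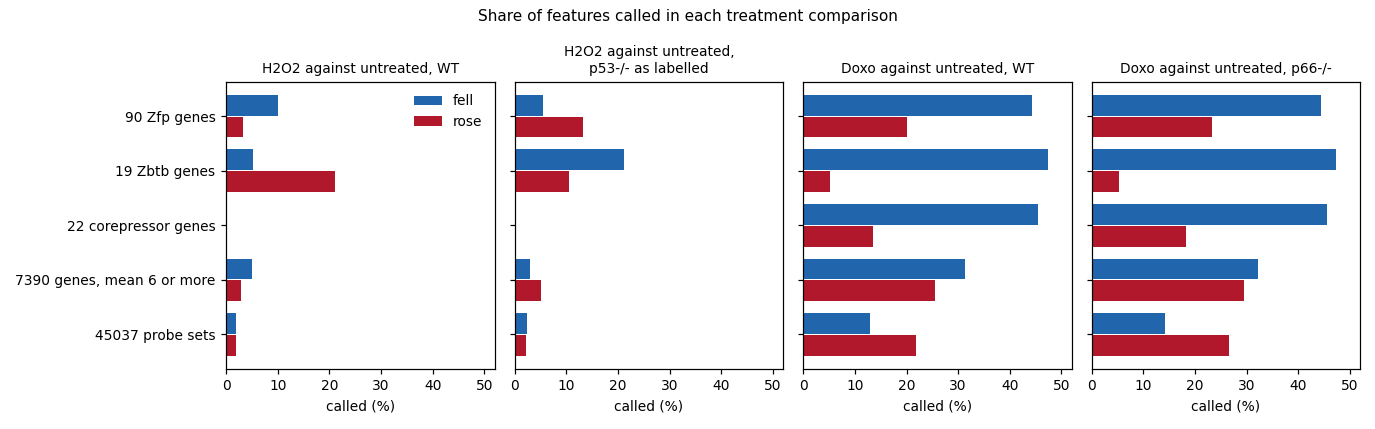
Percentage of features called (adjusted p under 0.05) that fell (blue) or rose (red) in each treatment comparison, for the Zfp members, 2 related gene lists, the genes passing the same level and all probe sets. After Doxo in WT 44.4% of the Zfp members fell and 20% rose, against 31.3% and 25.5% of the genes.

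Most members called in one genotype were also called in the other, whose Doxo and untreated arrays are separate samples although all Doxo arrays belong to 1 array set. Of the members that fell, 36 did so in both, 90% of each list, and of those that rose 16 did so in both, 88.9% of the WT and 76.2% of the p66-/- list. Of the 7390 genes, those that fell in both made up 95.3% of the WT and 92.5% of the p66-/- list, and those that rose in both 94.3% and 81.6%. Zfp639, Zfp277, Zfp809 and Zfp369 were called as falls in WT alone and Zfp180, Zfp148, Zfp652 and Zfp334 in p66-/- alone, while 2 members rose in WT alone and 5 in p66-/- alone. Across the 90 members the changes in p66-/- and WT had a Pearson correlation of 0.99 (0.96 across all probe sets), which is given as a description, since the genes share the arrays. No member was called for a difference in Doxo response between p66-/- and WT with limma, 2 had an unadjusted p under 0.05 (Zfp207 and Zfp827), and no probe set at all was called. The largest difference was that of Zfp281, at -0.62 ± 0.92 (SE). All 4 Doxo arrays lay below all 24 others for 28 members and above them for 12, while 23.9% and 20.4% of the 7390 genes did so.

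**Figure D3:**
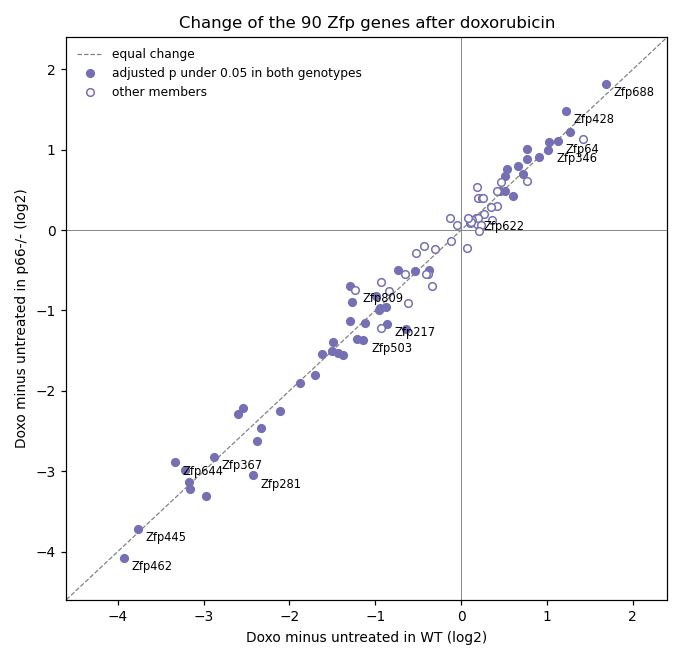
Change after Doxo (log2) in WT (x axis) and p66-/- (y axis) of each of the 90 members. Filled points passed the test in both genotypes, the dashed line marks equal change, and the points run along it from Zfp462 (-3.93 and -4.07) to Zfp688 (1.69 and 1.82).

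The largest falls after Doxo in WT were those of Zfp462, Zfp445 and Zfp644. Levels also differed between the array sets without Doxo. Between replicates 1 and 2 and replicates 3 and 4 (n = 12 arrays each), 6 members differed by more than 1. Zfp445 had set means of 8.53 and 7.31, Zfp644 8.17 and 6.88, Zfp638 7.76 and 5.96, Zfp281 8.27 and 7.07 and Zfp871 8.26 and 7.13. Zfp593 had 7.40 and 8.67 (9.33 with Doxo), and Zfp462 7.21 and 6.77. The Doxo set lay at 4.22 for Zfp445, 4.49 for Zfp644, 3.75 for Zfp638, 5.16 for Zfp281, 4.39 for Zfp871 and 3.68 for Zfp462. Zfp462, which restrains lineage genes through heterochromatin in mouse embryonic stem cells, had 3.73 and 3.46 on the WT Doxo arrays and 3.65 and 3.87 on the p66-/- Doxo arrays, against 7.62, 7.14, 7.75 and 7.60 in untreated WT and 8.70, 7.66, 7.49 and 7.48 in untreated p66-/-. No Doxo array came near any untreated array. Zfp462 fell by 3.93 ± 0.45 (SE, adjusted p = 2e-06, limma) in WT, and the change was -4.07 ± 0.45 (adjusted p = 1.1e-06) in p66-/-. Its 4 Doxo values lay below the median of all probe sets on those arrays, which was 4.41 and 4.44 in WT and 4.42 and 4.45 in p66-/-, so that the size of such a fall is limited by the low end of the scale. Zfp445, a KRAB protein that maintains genomic imprints, had 4.27 and 4.09 in WT Doxo and 4.46 and 4.08 in p66-/- Doxo, against 8.30, 8.34, 7.59 and 7.54 in untreated WT and 8.53, 8.72, 7.36 and 7.32 in untreated p66-/-. Its changes were -3.77 in WT and -3.71 in p66-/- (adjusted p = 0.00015 in both), with Doxo values close to the same median. Zfp644, a partner of the H3K9 methyltransferases G9a and GLP, had 4.18 and 4.40 in WT Doxo and 4.71 and 4.66 in p66-/- Doxo, against 8.13, 7.65, 7.44 and 7.27 in untreated WT and 8.40, 8.32, 6.70 and 6.89 in untreated p66-/-. The changes were -3.33 ± 0.71 (adjusted p = 0.0012) and -2.89 ± 0.71 (adjusted p = 0.0031). Of the other KRAB members with a known target, Zfp568, which represses a placental transcript of Igf2, changed by -1.43 ± 0.30 in WT and -1.52 ± 0.30 in p66-/- (adjusted p = 0.0011 and 0.00053). Zfp809, which silences murine retroviruses, passed the test in WT, with -1.24 ± 0.38 (adjusted p = 0.014), and had -0.74 ± 0.38 in p66-/- (adjusted p = 0.11), a difference between genotypes that passed no test.

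Further members that fell after Doxo in WT are given next. Zfp638, a cofactor of adipogenesis whose human counterpart silences unintegrated viral DNA, had 3.75 and 3.51 in WT Doxo, against 7.62, 7.11, 6.41 and 6.27 in untreated WT, a fall of 3.22 ± 0.92 (adjusted p = 0.0099) that did not pass the test without WT Doxo replicate 2 (adjusted p = 0.085). In p66-/- it had 4.20 and 3.53 after Doxo, against 5.67 to 7.83 untreated. Zfp326, part of a human complex that couples splicing to elongation, had changes of -1.71 ± 0.38 in WT and -1.80 ± 0.38 in p66-/- (adjusted p = 0.0018 and 0.00098). Zfp281, a regulator of pluripotency, had 5.49 and 5.40 in WT Doxo and 4.96 and 4.79 in p66-/- Doxo, against 7.58 to 8.29 in untreated WT and 7.13 to 8.71 in untreated p66-/-. Its changes were -2.43 ± 0.65 (adjusted p = 0.0068) and -3.05 ± 0.65 (adjusted p = 0.001). Zfp367 had 3.97 and 3.86 in WT Doxo and 4.64 and 3.85 in p66-/- Doxo, against 6.71 to 6.90 in untreated WT and 6.92 to 7.33 in untreated p66-/-. Zfp24, needed for myelination, changed by -2.54 ± 0.22 and -2.22 ± 0.22 (adjusted p = 1.5e-07 and 4e-07). Zfp207, which brings Bub3 to kinetochores, was among the brightest members and had 9.02 and 8.74 in WT Doxo and 8.86 and 9.17 in p66-/- Doxo, against 10.10 to 10.21 in untreated WT and 9.68 to 10.05 in untreated p66-/-. Zfp207 changed by -1.27 ± 0.12 in WT and -0.90 ± 0.12 in p66-/- (adjusted p = 1.9e-07 and 6.3e-06). Zfp503, a developmental repressor, changed by -1.14 ± 0.25 and -1.37 ± 0.25, Zfp217, whose human counterpart is an oncogene, by -0.87 ± 0.21 and -1.16 ± 0.21, and Zfp110, a binding partner of the p75 neurotrophin receptor, by -0.95 ± 0.25 and -0.97 ± 0.25, all 3 past the test in both genotypes. Zfp292 changed by -1.51 ± 0.43 in WT and -1.50 ± 0.43 in p66-/- (adjusted p = 0.01 and 0.0092). Without WT Doxo replicate 2 the WT calls of Zfp503, Zfp217, Zfp281, Zfp326 and Zfp809 were lost (adjusted p = 0.051, 0.063, 0.064, 0.065 and 0.1). Without WT Doxo replicate 1 those of Zfp292 and Zfp809 were lost (adjusted p = 0.09 and 0.061), and that of Zfp110 was lost with quantile normalization (adjusted p = 0.054). Of members with no role given here, Zfp617 changed by -3.17 in WT and -3.13 in p66-/-, Zfp871 by -3.16 and -3.22 and Zfp715 by -2.97 and -3.31, and all passed the test in both. Over the 40 members that fell in WT, the group mean ranged from 3.60 to 8.88 after Doxo, with a median of 5.59, against 6.32 to 10.1, with a median of 7.15, in untreated WT, and 12 of the 40 averaged under 5 on the WT Doxo arrays.

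Members that rose moved less far. Zfp24, Zfp35, Zfp451, Zfp598 and Zfp706 lie outside the rule for named genes and were chosen after their values were seen. Zfp688 had 7.52 and 7.61 in WT Doxo and 7.78 and 7.46 in p66-/- Doxo, against 5.77, 5.93, 5.92 and 5.88 in untreated WT and 5.54, 5.81, 5.81 and 6.03 in untreated p66-/-. The groups did not overlap, and the rise was 1.69 ± 0.36 in WT (adjusted p = 0.0013) and 1.82 ± 0.36 in p66-/- (adjusted p = 0.00057). Zfp64, whose human counterpart maintains MLL expression in leukaemia, had 8.27 and 8.47 in WT Doxo and 8.42 and 8.29 in p66-/- Doxo, against 7.03 to 7.41 in untreated WT and 7.09 to 7.43 in untreated p66-/-. It rose by 1.12 ± 0.22 and 1.11 ± 0.22 (adjusted p = 0.00044 and 0.00043). Zfp346, which binds double-stranded RNA, had 8.05 and 8.04 in WT Doxo and 7.93 and 8.14 in p66-/- Doxo, against 6.96 to 7.12 in untreated WT and 6.81 to 7.15 in untreated p66-/-. With a rise of 1.02 ± 0.11 (adjusted p = 1.2e-06) it had the smallest error of the large rises. Zfp524 rose by 1.27 and 1.22, Zfp428 by 1.22 and 1.48 and Zfp362 by 1.02 and 1.09 in WT and p66-/-, and Zfp771 by 0.77 and 1.01. Zfp598, whose human counterpart marks collided ribosomes, rose by 0.51 and 0.68 (adjusted p = 0.014 and 0.0016). The calls of Zfp428 and Zfp362 in WT were lost without WT Doxo replicate 2 (adjusted p = 0.096 and 0.051), and that of Zfp362 in p66-/- without p66-/- Doxo replicate 1 (adjusted p = 0.051). Over the 18 members that rose in WT, the group mean ranged from 6.66 to 9.56 after Doxo and from 5.88 to 8.80 in untreated WT.

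**Figure D4:**
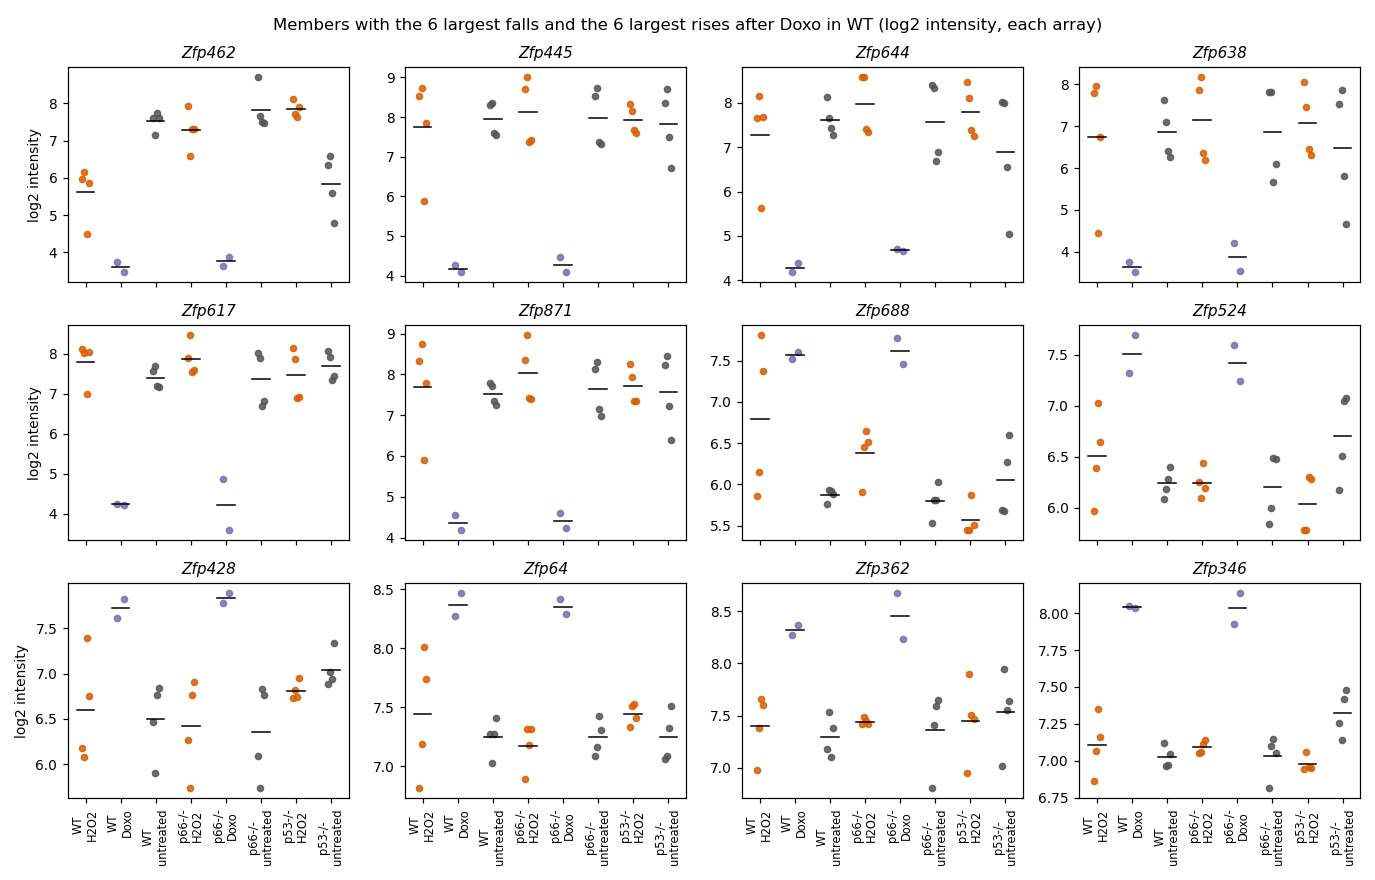
Log2 intensity on each array of the 6 members with the largest falls and the 6 with the largest rises after Doxo in WT. Points are arrays, black lines group means, and the y axis differs between panels. Zfp462 sits at 3.46 to 3.87 on the 4 Doxo arrays, below all others.

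Of the 32 members not called after Doxo in WT, several had levels that hardly differed. Zfp706, at a mean of 9.72 among the brightest, changed by 0.10 in WT and 0.08 in p66-/- through the chosen probe set, although a second one with a mean of 8.79 had -0.41 in WT (adjusted p = 0.023) and -0.34 in p66-/-. Zfp106, an RNA-binding protein of muscle and motor neurons, changed by 0.12 and 0.13. Zfp622, whose yeast counterpart acts in maturation of the large ribosomal subunit, had 10.64 and 10.75 in WT Doxo and 10.75 and 10.73 in p66-/- Doxo, against 10.46 to 10.62 in untreated WT and 10.44 to 10.64 in untreated p66-/-, with changes of 0.17 ± 0.11 and 0.15 ± 0.11. Zfp521, an inhibitor of adipogenesis, had -0.39 and -0.55 and Zfp703 0.27 and 0.20. Zfp148 had -0.93 (adjusted p = 0.07) in WT through the probe set that the rule chose, although its other 3 probe sets above the level had -1.87, -2.59 and -3.51 (adjusted p = 0.016, 0.00026 and 0.00012). Among the 16 further probe sets of members with a mean of 6 or more, 10 belonged to members called after Doxo in WT. All 10 had the sign of the chosen probe set and 7 passed the test themselves. Among these, Zfp451, whose human counterpart is a SUMO ligase, had -2.37, -1.93 and -3.63 on 3 probe sets. Zfp644 had -3.33 and -2.76, Zfp617 -3.17 and -2.01, and Zfp281 -2.43 and -2.89. Those that did not pass belonged to Zfp64 (0.32, adjusted p = 0.22), Zfp503 (-0.66, adjusted p = 0.066) and Zfp574 (0.41, adjusted p = 0.058). Zfp445 had further probe sets just under the level, with means of 5.75 and 5.70. They changed by -1.85 and -0.66 in WT (adjusted p = 0.11 and 0.14, limma). The brightest further probe sets of Zfp346, Zfp638, Zfp871 and Zfp292, also below the level, had 0.19, -1.28, -0.997 and -1.69 (adjusted p = 0.31, 0.29, 0.3 and 0.13). The WT calls of these members rest on the chosen probe set alone. For Zfp462 and Zfp24 such probe sets had -1.54 and -0.90 (adjusted p = 0.0077 and 0.027).

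The share that fell did not rest on dim members alone. Of the 14 members with a mean of 8 or more, 6 fell and 1 rose in WT (31.7% and 23.8% of genes of this level). Of the 28 between 7 and 8, 12 fell and 7 rose (33.6% and 26.5% of such genes). Of the 48 between 6 and 7, 22 fell and 10 rose (28.3% and 27.3% of such genes). The level rule used the Doxo arrays. Choosing members from the other 24 arrays gave 94 genes, of which 46 fell and 16 rose in WT (48.9% and 17%, against 32.7% and 24.6% of 7409 genes), a choice made after seeing the data. Zfp651, Zfp449 and Zfp687 were just inside the level, with means of 6.02, 6.03 and 6.06 and Doxo changes in WT of 0.72, -2.12 and 0.42. Zfp335, Zfp800 and Zfp1 were just outside, with means of 6.00, 5.99 and 5.99 and changes of -0.05, -1.61 and -0.34. Among the 187 Zfp genes that were not kept, 33 fell and 20 rose in WT and 33 fell and 34 rose in p66-/-, with medians of -0.16 and -0.09. This is 17.6% and 10.7% of them in WT and 17.6% and 18.2% in p66-/-, against 13.0% and 21.9% of all probe sets in WT and 14.1% and 26.6% in p66-/-.

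Genes next to each other on a chromosome did not always move together. In RefSeq's order of protein-coding genes, 9 pairs of members had at most 2 genes between them. Both members of 4 pairs were called after Doxo in WT, 3 in the same direction and 1 in opposite directions. Zfp326 and Zfp644 changed by -1.71 and -3.33, Zfp445 and Zfp105 by -3.77 and -1.37, and Zfp35 and Zfp24 by -0.74 and -2.54. Zfp64 rose by 1.12 while the change of its neighbour Zfp217 was -0.87.

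H2O2 changed fewer members. In WT, 9 fell and 3 rose, where 1.81% of all probe sets and 4.90% of the genes fell and 1.86% and 2.92% rose. This is 10% and 3.33% of the members. The median change was -0.07, against -0.02 for the genes and 0.02 for all probe sets. Zfp462 had 5.97, 6.16, 4.49 and 5.87 after H2O2, against 7.62, 7.14, 7.75 and 7.60 untreated, and fell by 1.91 ± 0.37 (adjusted p = 0.0031). Zfp469, whose human counterpart is mutated in brittle cornea syndrome, had 7.35, 7.07, 6.97 and 7.21 after H2O2, against 8.56, 8.29, 8.72 and 9.19 untreated, and fell by 1.54 ± 0.29 (adjusted p = 0.0022). Zfp503 had 7.82, 8.37, 7.76 and 8.32 after H2O2, against 9.24, 9.80, 9.13 and 9.33 untreated, and fell by 1.31 ± 0.21 (adjusted p = 0.00044). No H2O2 array of these 3 members overlapped with an untreated one. Zfp334 fell by 0.85 ± 0.13, Zfp513 by 0.82 ± 0.15, Zfp318, which B cells need for IgD, by 0.71 ± 0.10, Zfp207 by 0.66 ± 0.10, Zfp827, linked to telomere recombination in human cells, by 0.55 ± 0.15 and Zfp275 by 0.43 ± 0.09. Zfp827 and Zfp275 were named after their values were seen, to complete the list. The fall of Zfp207 is that of its chosen probe set. Its other probe sets, all below the level, ran from -0.03 to 0.65 after H2O2 in WT. The value of 0.65 came from the brightest of them (mean 5.70).

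The 3 rises after H2O2 in WT were of members that were not called after Doxo in WT. Zfp672 had 6.62, 7.03, 7.43 and 7.34 after H2O2, against 5.64, 6.00, 5.71 and 5.77 untreated, a rise of 1.32 ± 0.18 (adjusted p = 0.00011). Zfp622 had 10.77, 11.08, 11.09 and 10.81 after H2O2, against 10.46, 10.51, 10.52 and 10.62 untreated, a rise of 0.41 ± 0.09 (adjusted p = 0.01). Zfp740 had 6.91, 7.29, 6.85 and 6.87 after H2O2, against 6.45, 6.47, 6.41 and 6.51 untreated, a rise of 0.52 ± 0.13 (adjusted p = 0.022). In none of the 3 did the groups overlap. The call of Zfp740 was lost without untreated WT replicate 1 or 3 (adjusted p = 0.059 and 0.067), without WT H2O2 replicate 2 (adjusted p = 0.096) and with these 2 groups fitted alone (adjusted p = 0.057), as was that of Zfp622 in the last of these (adjusted p = 0.089), and neither rise reached the 1.5-fold of the study's methods. With the replicate number as a block, which the pairing of the arrays allows, 16 fell and 5 rose in WT. All 12 calls were kept and Zfp637, Zfp407, Zfp24, Zfp688, Zfp809, Zfp292, Zfp618, Zfp655 and Zfp449 were added. Replicates 1 and 2 alone gave 0 calls and replicates 3 and 4 alone gave 21, with changes of the same sign for Zfp462 (-1.31 in replicates 1 and 2), Zfp503 (-1.43) and Zfp672 (1.002).

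**Figure D5:**
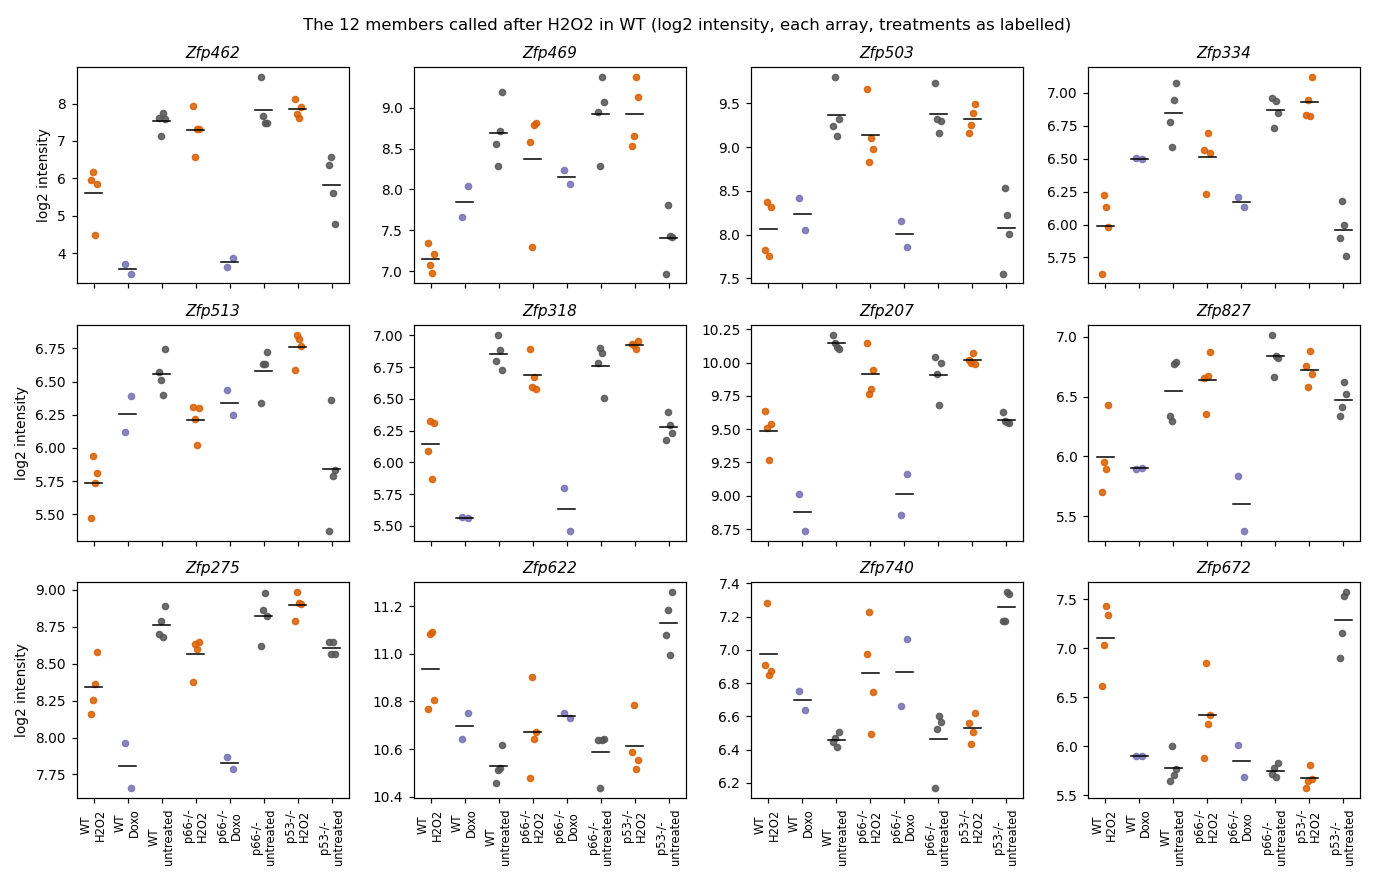
Log2 intensity on each array of the 12 members called after H2O2 in WT, with treatments as labelled. Points are arrays, black lines group means, and the y axis differs between panels. In Zfp672 the arrays labelled p53-/- untreated (6.90 to 7.57) sit where WT H2O2 does (6.62 to 7.43).

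WT H2O2 replicate 3 stood apart from its group in members that Doxo lowered. It had 5.87 for Zfp445, against 8.53, 8.73 and 7.85 on the other H2O2 arrays of WT, 4.46 for Zfp638, against 7.80, 7.95 and 6.75, and 5.39 for Zfp281, against 8.01, 8.37 and 7.08. Over the 40 members that fell after Doxo in WT, its median was 6.33, against 7.11, 7.32 and 6.83 on the other 3, while over the 18 that rose it was 7.37, against 6.44, 6.60 and 7.07. Replicates 3 and 4 labelled p53-/- untreated had 6.61 and 6.58 over the same 40, against 7.09 and 7.32 for replicates 1 and 2. The 40 and the 18 members were selected on the Doxo arrays of WT, and their levels here are a description. Leaving out WT H2O2 replicate 3 or any other array of the comparison gave between 10 and 17 calls in WT.

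In p66-/- MEFs no member was called after H2O2 with limma, with the methods' t-test or with the replicate block, and 0.0178% of all probe sets were. At an unadjusted p under 0.05 there were 7, beside 534 of the 7390 genes. The median change was 0.04, against -0.01 for the genes. Zfp462 had 7.93, 6.58, 7.32 and 7.32 after H2O2, against 8.70, 7.66, 7.49 and 7.48 untreated, a change of -0.55 ± 0.37. Zfp672 had 5.88, 6.85, 6.23 and 6.32 after H2O2, against 5.71, 5.78, 5.68 and 5.83 untreated, a change of 0.57 ± 0.18 (adjusted p = 0.59). Its H2O2 arrays all lay above the untreated ones. Zfp503 changed by -0.24 ± 0.21 and Zfp207 by 0.01 ± 0.10. The difference in response between p66-/- and WT was called for no member, while 0.00222% of all probe sets were called, and 15 members had an unadjusted p under 0.05. A difference from WT was therefore not shown for any member. Untreated p66-/- and WT MEFs differed in no member either, with 1, Zfp207, at an unadjusted p under 0.05.

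On the arrays labelled p53-/-, 12 members rose and 5 fell after H2O2 as labelled. All probe sets rose in 2.11% and fell in 2.45%, and the genes in 5.03% and 3.03%. With the labels exchanged, the same 17 members are called with opposite sign, 12 falls and 5 rises. As labelled, Zfp462 had 8.11, 7.72, 7.62 and 7.91 on H2O2 arrays, against 6.35, 6.58, 5.60 and 4.79 on untreated arrays, a change of 2.01 ± 0.37 (adjusted p = 0.0019), which is -2.01 with the labels exchanged. Zfp672 had 5.57, 5.65, 5.81 and 5.67, against 6.90, 7.16, 7.53 and 7.57, a change of -1.62 ± 0.18 as labelled (adjusted p = 1.1e-05) and 1.62 exchanged. Zfp469 changed by 1.51, Zfp503 by 1.24, Zfp334 by 0.97, Zfp513 by 0.92, Zfp105 by 0.91, Zfp740 by -0.73, Zfp622 by -0.52, Zfp512 by -0.39 and Zfp346 by -0.35 as labelled. The response differed between p53-/- and WT in 31 members as labelled (20 with the larger value in p53-/-, and 10.8% of all probe sets). With the labels exchanged it differed in no member and in 0.02% of all probe sets, and 1 member had an unadjusted p under 0.05. Untreated p53-/- and WT differed in 19 members as labelled (7 higher and 12 lower in p53-/-, and 4.75% of all probe sets). With the labels exchanged they differed in no member and in 0.0844% of all probe sets, and 1 member had an unadjusted p under 0.05. As labelled, Zfp809 had 5.22, 5.58, 5.11 and 5.35 in untreated p53-/-, against 7.72, 6.70, 6.51 and 6.51 in untreated WT, a difference of -1.55 ± 0.31 (adjusted p = 0.0034), and Zfp367 had 8.88, 8.03, 8.12 and 7.09, against 6.72, 6.90, 6.71 and 6.83, a difference of 1.24 ± 0.29 (adjusted p = 0.012). With the labels exchanged these were -0.60 (adjusted p = 0.86) and 0.47 (adjusted p = 0.88).

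Both treatments were compared with each other directly, since their changes share the untreated arrays. Doxo gave lower values than H2O2 for 35 members and higher values for 20 in WT (29.2% and 25.3% of the genes), and for 41 and 18 in p66-/- (32.9% and 32.3%). Without WT Doxo replicate 2 there were 29 calls in WT. In WT the largest differences were those of Zfp445 (-3.57 ± 0.65), Zfp617 (-3.57 ± 0.43), Zfp367 (-3.47 ± 0.35) and Zfp871 (-3.32 ± 0.62) downward and Zfp574 (1.38 ± 0.29), Zfp428 (1.12 ± 0.35), Zfp637 (1.03 ± 0.29) and Zfp524 (0.999 ± 0.263) upward. Zfp367 changed by -2.88 after Doxo (adjusted p = 3.9e-06) and 0.59 after H2O2 (adjusted p = 0.41). Zfp462 fell after both, by 3.93 after Doxo and 1.91 after H2O2, and differed by -2.02 ± 0.45 between them (Doxo minus H2O2, adjusted p = 0.0021). Zfp503 had -1.14 and -1.31, a difference of 0.17 ± 0.25 (adjusted p = 0.64). Zfp672 had 0.12 after Doxo and 1.32 after H2O2, and differed by -1.20 ± 0.22 (Doxo minus H2O2, adjusted p = 0.00031).

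Related gene lists were set beside the members. Of 19 Zbtb genes, which pair zinc fingers with a BTB domain, 9 fell and 1 rose after Doxo in each genotype (47.4% and 5.26%), with median changes of -0.22 in WT and -0.36 in p66-/-. Of all genes of the same level 31.3% fell and 25.5% rose in WT and 32.2% and 29.5% in p66-/-. Of 6 Zscan and Zkscan genes, 1 fell in WT, and 2 fell and 1 rose in p66-/-. Of 22 measured genes of the KRAB corepressor and heterochromatin machinery, 10 fell and 3 rose in WT (45.5% and 13.6%) and 10 fell and 4 rose in p66-/- (45.5% and 18.2%), with medians of -0.07 and -0.29. Trim28, the corepressor itself, rose by 0.59 ± 0.20 in WT and 0.71 ± 0.20 in p66-/- (adjusted p = 0.023 and 0.0069), while the heterochromatin proteins Cbx1, Cbx3 and Cbx5 changed by -1.58, -2.01 and -1.75 in WT, Hdac2 by -1.91 and Setdb1 by -0.36 ± 0.12 (adjusted p = 0.021). Cbx3, Setdb1 and Trim28 were named after their values were seen. No gene of this list was called after H2O2 in WT with limma, and 4 had an unadjusted p under 0.05.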

How the data were processed

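Biotinylated target was made from 100 ng of total RNA and hybridised to 28 Affymetrix MOE430PM strip arrays. The authors normalized them by RMA in Partek 6.5, as the submitters' processing notes name these tools, and deposited log2 values of 1.95 to 13.5. They were not transformed further. RMA pools probes within a probe set and sets arrays to a common scale, so a change shared by most transcripts would not be seen. Arrays have no sequencing depth, and their number limits the precision. Of 45141 probe sets, 104 controls were left out of tests. Of the other 45037, 28898 had 1 gene symbol in the platform annotation, 551 several and 15588 none. All 90 members matched RefSeq (GRCm38.p6) by gene ID with the same symbol.

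limma 3.58.1 in R 4.3.3 fitted the means of 8 groups on 28 arrays, with Benjamini-Hochberg adjustment over 45037 probe sets. The study reports independent MEF preparations as replicates. The scripts were tested on simulated data. Deviations of same-numbered untreated and H2O2 arrays correlated at 0.51 to 0.75 in 12 pairs. In p66-/- replicates 3 and 4 the best match was not the array of the same number. The numbers thus pair most of those arrays. In the 4 Doxo pairs the correlation was -0.08 to 0.05, and there the numbers do not pair the arrays. Named members are, among the calls, the 6 largest rises and falls of each treatment comparison, the 4 largest either way of each other comparison, the 3 members on either side of the level, and 30 members with known roles, of which 19 were kept, 3 fell below the level and 8 had no probe set with a single symbol. The members and lists were chosen with earlier results of these data known. The planned split by type of protein was not run, as no protein sequences were used here. Alternatives were quantile normalization, centred arrays, a replicate block, each array set alone, other level limits, each gene's lowest probe set, the methods' t-test, single arrays left out, exchanged p53-/- treatment labels and, added after seeing the data, members chosen without the Doxo arrays.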

Additional observations from a re-analysis of the deposited data

Results flagged for a closer look

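A sample far from the other 3 of its group was looked for in the 39 named members and in the median over the members, which gives 240 groups of 4 arrays. It was found in 12, about what chance gives at 1 in 20. In WT after H2O2, replicate 2 had 7.29 for Zfp740 (others 6.85 to 6.91) and 7.42 for Zfp568 (others 6.59 to 6.64), and replicate 3 had 7.01 for Zfp617 (others 8.03 to 8.13). In untreated WT, replicate 4 had 8.94 for Zfp771 (others 8.74 to 8.76) and replicate 1 had 7.72 for Zfp809 (others 6.51 to 6.70). In p66-/- after H2O2, replicate 2 had 7.29 for Zfp469 (others 8.58 to 8.81), 7.81 for Zfp367 (others 7.28 to 7.30) and 6.38 for Zfp106 (others 6.26 to 6.27). In untreated p66-/-, replicate 2 had 10.44 for Zfp622 (others 10.64), and replicate 1 had 8.70 for Zfp462 (others 7.48 to 7.66). On the arrays labelled p53-/- H2O2, replicate 2 had 7.06 for Zfp346 (others 6.94 to 6.95) and replicate 3 had 5.87 for Zfp688 (others 5.44 to 5.50).

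The response to H2O2 differed between p53-/- and WT in 31 members as labelled, by the interaction term in limma. The largest differences, p53-/- minus WT, were 3.92 for Zfp462, 3.05 for Zfp469, 2.55 for Zfp503 and 1.83 for Zfp334 upward and -2.94 for Zfp672, -1.41 for Zfp688, -1.36 for Zfp367 and -1.25 for Zfp740 downward. None of the 31 calls remained with the treatment labels of the p53-/- arrays exchanged, where 0.02% of all probe sets were called. The exchange turns round a response that ran opposite to that of WT (Pearson correlation of -0.92 over the members). Smaller differences therefore follow from the exchange itself, which is no test of the labels.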

How the results depend on the processing

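The named members gave 108 results and 1587 values under alternatives. Of these, 1437 were counted as the same, 117 lost the call, 14 gained one and 19 called results turned direction. A result that was not called in the main fit was counted as the same even if its sign changed. All 19 came from exchanging the treatment labels of the p53-/- arrays. The H2O2 changes in p53-/- then were -2.01 for Zfp462, -1.51 for Zfp469, -1.24 for Zfp503, -0.97 for Zfp334, -0.92 for Zfp513, -0.91 for Zfp105, 1.62 for Zfp672, 0.73 for Zfp740, 0.52 for Zfp622, 0.39 for Zfp512 and 0.35 for Zfp346. The differences in response to WT were -0.11 for Zfp462, -0.12 for Zfp334, 0.29 for Zfp672, 0.18 for Zfp367 and 0.21 for Zfp740, and the untreated differences -0.11 for Zfp672, 0.32 for Zfp462 and 0.23 for Zfp469. The median H2O2 change was -0.11, and 0 members differed from WT in response or untreated, as did 0.02% and 0.0844% of all probe sets. The cause was not tested.

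Calls after H2O2 in WT numbered 1 with the adjusted methods' t-test, 0 with replicates 1 and 2 alone, 21 with replicates 3 and 4 alone, 7 with each gene's lowest probe set and 5 at a mean of 7 or more. With the replicate block, which follows the pairing of most untreated and H2O2 arrays, they numbered 21. The block changed no call made without it in the treatment comparisons with untreated MEFs. It gave 25 calls after H2O2 in p53-/- as labelled (19 rose and 6 fell). There the response differed from WT in 44 members and the untreated level in 28. Doxo arrays did not pair by number (correlations of -0.08 to 0.05), so the block follows no pairing for them. With it, calls after Doxo numbered 64 in WT and 68 in p66-/-, and the median in p66-/- was -0.36. In p53-/- as labelled, H2O2 calls numbered 5 with the adjusted methods' t-test, 0 with replicates 1 and 2 alone, 10 with the lowest probe set, 6 at a mean of 7, 26 at a mean of 5 and 31 with no minimum. Their median was 0.0086 with the lowest probe set and -0.051 at a mean of 7. Calls after Doxo in WT numbered 26 at a mean of 7, 92 at 5 and 111 with no minimum, and those in p66-/- numbered 26 at a mean of 7, 98 calls at 5, 128 calls with no minimum and 30 with the adjusted methods' t-test. The number of genes differs between these level limits. The median after Doxo in WT was -0.11 with quantile normalization, 0.014 with the lowest probe set, -0.26 at a mean of 7, -0.18 with no minimum and -0.53 with members chosen without the Doxo arrays. In p66-/- it was -0.12, -0.055, -0.21, -0.13 and -0.55, and -0.45 with centred arrays and -0.29 at a mean of 5.

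Leaving out 1 array at a time gave medians of -0.13 to -0.02 for H2O2 and -0.42 to -0.35 for Doxo in WT, -0.03 to 0.07 and -0.46 to -0.32 in p66-/- and 0.04 to 0.15 for H2O2 in p53-/-. Calls were 10 to 17 and 37 to 58 in WT, 0 and 47 to 62 in p66-/- and 14 to 19 in p53-/-. Doxo against H2O2 gave 29 to 59 in WT and 48 to 61 in p66-/-. Response differences from WT gave 25 to 35 in p53-/- and 0 in p66-/- for either treatment, and untreated differences 15 to 22 and 0. With 2 Doxo arrays per genotype, all in 1 array set, the number of arrays limits the precision.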
